A study of Mus musculus with 88 samples.

Results

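The proteasome genes of mouse were followed through 9 tissues. Members were all genes whose symbol in the deposited gene annotation begins with Psma, Psmb, Psmc, Psmd, Psme, Psmf or Psmg followed by a digit. This gave 50 of the 24453 genes in the table. By role they were 7 structural 20S alpha subunits, 4 non-cleaving and 3 constitutive cleaving 20S beta subunits, 6 ATPases and 11 other subunits of the 19S cap, 3 immunoproteasome subunits, 7 assembly factors, the PA28 pair, 2 other activators and 1 inhibitor. The remaining 4 were Psma8, a germ cell alpha subunit, Psmb11, the thymus subunit, Psme2b, a single-exon copy of Psme2, and Psmc3ip, which carries the letters of the family but encodes a meiotic recombination factor and no subunit.

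The study sequenced polyadenylated RNA from spleen, lung, liver, kidney, heart and 4 skeletal muscles (tibialis, soleus, gastrocnemius and extensor digitorum longus, EDL) of 10 male C57BL/6NTac mice. In 5 mice Cdh15, the gene of the muscle adhesion protein M-cadherin, was knocked out (labelled Cdh15 KO, here KO) and 5 were wild type (WT). All were 65 to 85 days old and all had been fasted for 18 h, so no fed mouse stands for comparison. WT kidney and WT spleen had 4 libraries each and every other group 5, which made 88 libraries of 8.206 M to 25.14 M counts, with a median of 19.02 M. The labels do not say how the knockout was made or whether it acts in all tissues.

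The 20S proteasome is a barrel of alpha and beta rings whose cleaving beta subunits cut proteins into peptides, and the 19S cap recognises ubiquitin chains, unfolds the substrate with its ATPases and feeds it into the barrel. Leukocytes and cells exposed to interferon replace the cleaving subunits Psmb5, Psmb6 and Psmb7 by Psmb8, Psmb9 and Psmb10, which makes the immunoproteasome, and PA28 (Psme1 and Psme2) can dock in place of the cap. In skeletal muscle the ubiquitin-proteasome pathway is known for protein breakdown during fasting and disuse.

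The start regions of the cleaving subunits are shown because the constitutive and the immune genes behaved differently across tissues. A start region of 250 bases upstream was matched in the RefSeq table (GRCm38.p6) for 42 of the 50 members, in 45 windows, and Psmb7 had no entry. Stretches covered by annotated exons were left out, and for Psmb8 and Psmb9, where other annotated exons cover the region, only the 30 bases around a match are shown. Sequences read 5′ to 3′ on the gene's strand. Capitals mark a match to TGACNNNGC (the core of the antioxidant response element, bound by the Nfe2l1 and Nfe2l2 factors) in Psmb5 (chr14:54618023-54618245, minus strand) and Psmb6 (chr11:70525107-70525356, plus strand), to TTCNNNGAA (the gamma-activated sequence) in Psmb8 (chr17:34198087-34198116, plus strand) and to CCAAT, read on the other strand, in Psmb9 (chr17:34187331-34187360, minus strand). The Psmb10 stretch (chr8:105938445-105938642, minus strand) held none of the motifs searched.
Psmb5: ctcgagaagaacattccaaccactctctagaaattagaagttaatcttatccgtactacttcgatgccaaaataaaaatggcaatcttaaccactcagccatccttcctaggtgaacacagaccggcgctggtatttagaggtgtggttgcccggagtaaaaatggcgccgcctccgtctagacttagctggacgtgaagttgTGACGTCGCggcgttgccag
Psmb6: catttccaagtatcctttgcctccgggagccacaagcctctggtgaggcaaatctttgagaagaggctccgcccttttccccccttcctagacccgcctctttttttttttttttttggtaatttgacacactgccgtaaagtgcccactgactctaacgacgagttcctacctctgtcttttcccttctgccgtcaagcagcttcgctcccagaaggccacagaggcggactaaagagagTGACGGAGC
Psmb10: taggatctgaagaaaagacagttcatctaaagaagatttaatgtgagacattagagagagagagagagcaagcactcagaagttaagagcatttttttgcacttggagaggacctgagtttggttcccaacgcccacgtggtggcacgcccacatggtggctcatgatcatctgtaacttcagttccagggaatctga
Psmb8: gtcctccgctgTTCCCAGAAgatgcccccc
Psmb9: cctgcaccgcgcgcagccgctgATTGGaaa

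On both strands TGACNNNGC was found in 5 of the 42 matched members (11.9%), Psmb5, Psmb6, Psmc6, Psmd12 and Psmd9, against 10.2% of all 32851 promoters in the table. The core of the interferon-stimulated response element, GAAA, any 2 bases and GAAA again, was found in Psmb3, Psmd4 and Psmd9 (7.14%, against 2.98% of all promoters). TTCNNNGAA was found in Psmb8 and Psmg1 (4.76%, against 7.02%), and CCAAT in 15 members (35.7%, against 33.8%). A member counted once if any of its windows held the motif, whereas the share of all promoters is per window. A match describes the letters in this window and not a bound site.

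The labels were checked against Cdh15 and against tissue markers. In the 4 muscles Cdh15 lay between 0.371 and 1.43 RPKM in KO and between 4.11 and 8.11 in WT libraries, without overlap, and was near 0 elsewhere (RPKM, reads per kilobase of exon scaled to the library total, is the per-length scale used here for levels). Muscle, heart, liver, kidney, lung and spleen markers were all higher in their own tissue than in any other library, except the leukocyte gene Lyz2, which was higher in lung than in spleen. In 2 spleen libraries, WT 3805673 and KO 3817943, the ribosomal protein gene Rpl26 had 807 and 735 CPM (counts scaled to the library total), and it was at 0 in the other 86 libraries. Gm15772, at 820 to 954 CPM in the other 7 spleen libraries, was at 0 in both. Of the 8 cleaving and PA28 genes, Psmb5, Psmb7, Psmb8, Psmb9, Psme1 and Psme2 departed from the other spleens in at least 1 of these libraries. The spleen values of these genes and their ratios are therefore also given for the other 7 spleens. Other members were not searched for such departures. The KO soleus of mouse 3805666 had 89.7 CPM of the fast myosin Myh4, where the other soleus libraries had at least 27368 CPM.

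The 3 immunoproteasome subunits varied far more between tissues than their constitutive partners. Psmb8, the chymotrypsin-like subunit that takes the place of Psmb5, was lowest in EDL, with 0.925, 1.73 and 2.89 RPKM (lowest, median and highest of 10 libraries), and in gastrocnemius, with 1.36, 1.83 and 3.15. Soleus had 1.68, 2.68 and 4.42 RPKM and tibialis 1.55, 3.20 and 3.79. The 4 skeletal muscles overlapped one another. Above them came kidney with 5.44, 6.58 and 8.38 RPKM, heart with 5.68, 7.95 and 11.6 and liver with 9.37, 11.2 and 14.9. Lung had 43.6, 48.1 and 53.7 RPKM and spleen 134, 209 and 236 (172 to 236 in the 7 spleens other than the pair that stood apart). Heart overlapped kidney and liver, whereas lung and spleen each stood clear of every other tissue.

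Psmb9, which replaces Psmb6, ran at lower levels, from a median of 0.939 RPKM in EDL and 0.944 in gastrocnemius to 31.5 in lung and 111 in spleen (113 in the other 7 spleens). Its heart values (3.31, 4.86 and 7.59) overlapped those of kidney (3.87, 4.29 and 5.84) and liver (5.53, 7.87 and 10.1). As few as 8 reads stood behind the lowest Psmb9 value and 21 behind the lowest Psmb8 value, so differences among the muscles are imprecise. Psmb10, which replaces Psmb7, ran from a median of 2.71 RPKM in gastrocnemius to 37.7 in lung and 66.7 in spleen (68.0 in the other 7), and heart (8.96, 12.9 and 14.9) stood above kidney (4.37, 6.30 and 7.47).

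The constitutive partners changed little by comparison. Psmb5 ranged from a median of 59.7 RPKM in heart and 60.0 in spleen to 109 in kidney, Psmb6 from 62.9 in heart to 105 in liver and Psmb7 from 68.4 in spleen to 148 in EDL. In the other 7 spleens the medians of Psmb5 and Psmb7 were 61.4 and 70.0 RPKM. Summed over the 6 cleaving subunits, the 3 immune subunits made up 1.33% to 3.86% of RPKM in the 40 skeletal muscle libraries and 8.80% to 12.9% in the 10 heart libraries. The share was 4.76% to 6.58% in kidney, 7.73% to 11.8% in liver, 29.2% to 36.2% in lung and 63.8% to 67.3% in spleen. Without the 2 libraries that stood apart, the spleen share was 65.8% ± 0.862 (SD, n = 7). Psmb8 exceeded Psmb5 in every spleen library (287% to 549% of it, and 287% to 380% in the other 7) and in no other library, and Psmb10 came to 83.6% to 107% of Psmb7 there (91.5% to 107% in the other 7).

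**Figure D1:**
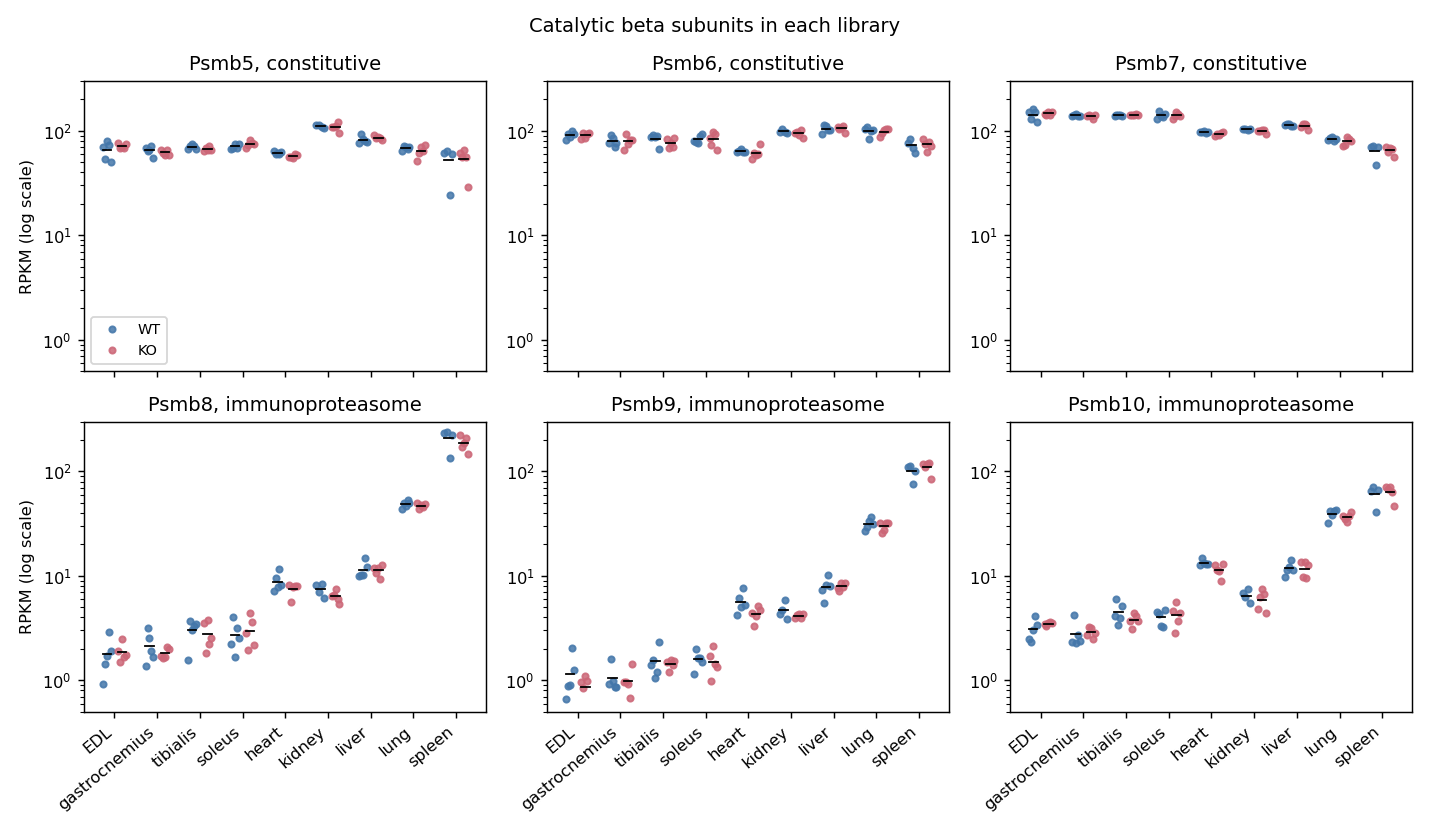
Level of each cleaving subunit in every library, in RPKM on a log axis, by tissue, with WT in blue, KO in red and bars at group means. The constitutive subunits in the upper row stay within 24.3 to 161 RPKM, while Psmb8 in the lower row runs from 0.925 RPKM in EDL to 236 in spleen.

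Leukocyte markers were high in lung and spleen, where the immune subunits were also high. Among the other tissues they followed the immune share only in part. The summed level of the 12 markers was 26.9 to 191 RPKM in skeletal muscle, 50.8 to 75.8 in heart, 37.3 to 44.6 in kidney, 30.4 to 51.7 in liver, 4203 to 5452 in lung and 3806 to 4854 in spleen. Without Lyz2, the other 11 summed to 7.07 to 41.8 RPKM in muscle, 15.4 to 21.9 in heart, 27.2 to 29.8 in kidney, 16.7 to 29.2 in liver, 196 to 305 in lung and 3089 to 3987 in spleen. No marker was at 0 in all libraries of a tissue, and 3 to 5 of the 12 were at 0 in some library of each skeletal muscle. Lung and spleen overlapped in the sum of the 12 although the immune share did not. Skeletal muscle, whose share was lower, overlapped heart, kidney and liver in both sums. Its medians were below those of heart, at 46.5 against 64.3 RPKM for the 12 and 13.0 against 18.6 without Lyz2. The muscle median without Lyz2 was also below every kidney and liver library, whereas that of the 12 was above every kidney library. Liver had a higher share than kidney with sums that overlapped. The endothelial markers Pecam1 (54.1 to 64.7 RPKM in heart, at most 37.5 in skeletal muscle) and Cdh5 (49.6 to 63.1, at most 32.1) were also higher in heart. The part of these cells in the levels was not tested, and in whole tissue fewer cells of a type and less RNA per cell cannot be told apart.

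The 31 structural and constitutive subunits of the 20S barrel and 19S cap, taken here as the core, varied less between tissues than the immune subunits and PA28. Single core genes lay between 15.4 and 187 RPKM over all 88 libraries. The geometric mean of the 31 was 46.0 to 51.1 RPKM in heart, 50.8 to 71.3 in kidney, liver, lung and spleen and 61.0 to 85.2 in skeletal muscle. It was 60.8 to 67.4 RPKM in the 7 spleens other than the pair that stood apart. Heart was lowest and overlapped only with the spleen library WT 3805673, which stood apart, and muscle and the inner organs overlapped. The next values are relative to the core mean of the same library, so shifts shared by the core drop out. The range of a core subunit's tissue means had a median of 0.77 on the log2 scale. It ran from 0.35 for the ATPase Psmc5 to 1.38 for Psmd8, a lid subunit of the cap. The same range was 3.91 for Psme2, 4.24 for Psme1, 4.66 for Psmb10, 7.04 for Psmb8 and 7.05 for Psmb9.

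Cap and barrel shifted against each other between muscle and the inner organs. The ratio of the geometric mean RPKM of the 17 cap subunits to that of the 14 barrel subunits was 0.736 to 1.01 in skeletal muscle (median 0.904, n = 40), 0.693 to 0.769 in heart and 0.531 to 0.658 in the 38 libraries of kidney, liver, lung and spleen. Muscle and inner organs did not overlap. In the same mouse, heart lay below the mean of the 4 skeletal muscles in 10 of 10 mice and soleus below the mean of the 3 fast muscles (EDL, gastrocnemius and tibialis) in 10 of 10. Relative to the core, 10 of the 17 cap subunits but 1 of the 14 barrel subunits, Psmb7, had their highest tissue mean in a skeletal muscle, and 5 barrel subunits had theirs in spleen.

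Single subunits moved further. Psmd8 had a median of 144 RPKM in EDL, 141 in tibialis, 135 in gastrocnemius and 114 in soleus, against 36.1 in heart and 60.8 to 70.0 in the inner organs. Psmd8 made up 140% to 234% of the core mean in skeletal muscle, 65.3% to 81.6% in heart and 88.0% to 150% in the inner organs. In the 7 spleens other than the pair that stood apart it was 94.0% to 116%. Heart was lowest, and on this measure muscle and organs overlapped. In RPKM, muscle (90.7 to 157) and inner organs (55.8 to 85.8) did not overlap. Psmd7, another lid subunit, had tissue medians of 79.6 to 97.0 RPKM in the muscles against 49.4 in heart and 40.6 to 53.3 in the inner organs. Psmd14, the deubiquitinase of the lid, was lowest in heart, at 15.4, 16.9 and 18.1 RPKM, below every library of the other tissues.

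The activators divided by kind. Psme1, a PA28 subunit, had medians of 16.4 to 24.2 RPKM in the muscles, 44.9 in kidney, 62.6 in liver, 69.8 in heart, 122 in lung and 259 in spleen (249 in the other 7). Relative to the core it was 19.8% to 45.0% in skeletal muscle and 128% to 154% in heart, and 365% to 404% in the 7 spleens other than the pair that stood apart. Psme2, its partner, followed with medians of 10.4 to 16.6 RPKM in the muscles, 33.1 in heart and 161 in spleen (168 in the other 7), and its reads are partly shared with Psme2b. Psme3, the nuclear PA28 relative, was highest in spleen at 46.7, 62.1 and 72.2 RPKM (46.7, 54.9 and 67.9 in the other 7) and lay between 14.3 and 29.5 in all other tissues.

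Psme4, the PA200 activator, went the other way. Gastrocnemius had 74.8, 82.3 and 89.3 RPKM, EDL 60.0, 70.6 and 81.7, tibialis 62.4, 67.9 and 77.4, soleus 32.1, 52.3 and 67.3 and heart 44.5, 48.9 and 50.4. Kidney had 31.3, 32.8 and 36.9 RPKM and liver a median of 20.8. Lung had 14.9, 15.5 and 17.1 RPKM and spleen 12.5, 16.5 and 17.7 (16.1, 16.7 and 17.7 in the 7 spleens other than the pair that stood apart). Except for the KO soleus of mouse 3805666, at 32.1, all skeletal muscle libraries were above all inner organ libraries. Relative to the core, Psme4 was 87.4% to 107% in heart, within the range of skeletal muscle (43.4% to 140%), and 22.7% to 58.9% in the inner organs.

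**Figure D2:**
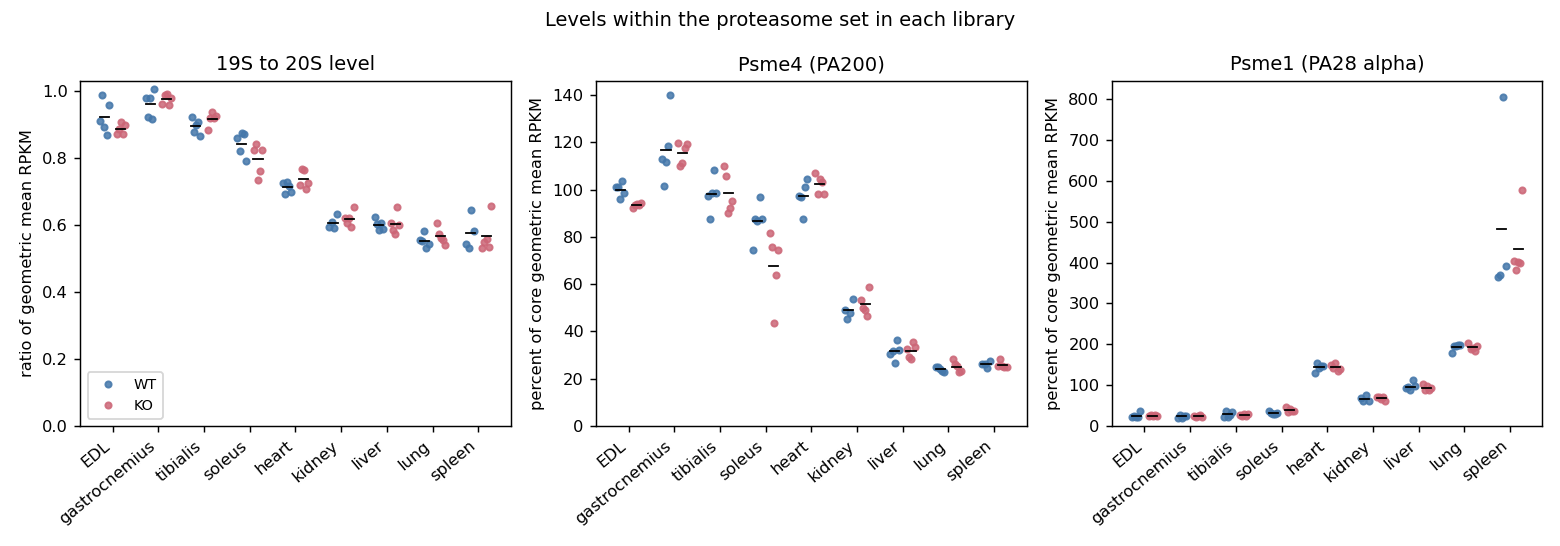
The left panel plots the ratio of cap to barrel level per library, and the middle and right panels Psme4 and Psme1 as percent of the core geometric mean, by tissue, with WT in blue, KO in red and bars at group means. The cap to barrel ratio is 0.736 to 1.01 in skeletal muscle and 0.531 to 0.658 in the inner organs, and the highest Psme1 value, 806%, is a spleen library that stood apart.

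The assembly factors were far less abundant than the subunits they help to place. All 7 (the cap chaperones Psmd5, Psmd9 and Psmd10 and the barrel chaperones Psmg1 to Psmg4) were at tissue medians of 2.66 to 20.8 RPKM. Psmg4 had the widest range among them, with a median of 2.66 RPKM in tibialis and 20.5 in spleen. Psmd9 was highest in liver, at 15.1, 18.4 and 21.9 RPKM, above every library of another tissue. Psmf1, the inhibitor PI31, had medians of 3.58 to 4.15 RPKM in the muscles and 11.5 in spleen.

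Tests between tissues were made in WT mice and repeated in KO mice. Fold changes are log2 differences after TMM scaling, which centres the libraries on their typical gene, and are called at an adjusted p of at most 0.05 over 16842 genes in WT and 16710 in KO mice. The scaling matters here: on library totals alone the median of all genes shifts by up to 1.12, and the core is therefore also given relative to the median of all genes tested, a difference in which the scaling of libraries cancels.

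Skeletal muscle against the 4 inner organs gave 35 members higher and 15 lower in WT mice, where 85.1% of all genes were called, 40.5% higher and 44.6% lower. All 6 ATPases (median 1.18), all 11 other cap subunits (1.60), all 7 alpha subunits (0.75) and all 4 non-cleaving beta subunits (0.50) were higher. The core median was 0.94 against -0.16 for all genes, a difference of 1.11. On library totals 15 members were called higher and 30 lower (14 and 12 of the core, and 20.3% and 67.4% of all genes), with all genes at -1.06, so that the core was higher relative to the typical gene and not per count. Apart from the cleaving and PA28 genes, the largest change was in Psma8, at -3.05 on few reads, followed by Psme4 at 2.72 (SE 0.0454, adjusted p = 7.06e-40), Psmd8 at 1.94 and Psmd7 at 1.87.

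The cleaving subunits divided in the same comparison. Psmb8 was lower by -2.74 (SE 0.103, adjusted p = 7.88e-26), Psmb9 by -2.92 and Psmb10 by -1.64. Psmb7 was higher by 1.56, and Psmb5 and Psmb6 by 0.75 and 0.79, values that turn to -0.15 and -0.10 on library totals. Psme1 and Psme2 were lower by -1.50 and -1.58, and 6 of the 7 assembly factors were lower and 1 higher. Of 37 other pathway genes, 26 were higher and 11 lower. After TMM scaling all 11 proteasome partners and all 10 regulators and shuttles were higher, and all 9 antigen presentation genes were lower. AI314180 (Ecpas, a proteasome scaffold) was at 2.71. In RPKM its median was also higher in skeletal muscle (59.5 against 17.6), but that of the partner Pomp was lower (58.8 against 103). The muscle ubiquitin ligase Fbxo32 was at 8.05. KO mice again gave 35 members higher and 15 lower, with 85.5% of all genes called, 40.3% higher and 45.2% lower.

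Heart was compared with the 4 skeletal muscles, which gave 9 members higher and 36 lower in WT mice (73% of all genes called, 39% higher and 34% lower). All 31 core genes were lower, with a median of -0.79 and -0.86 relative to all genes. On library totals 13 members were higher and 28 lower (54.3% and 21% of all genes), with 26 of the core lower and none higher. Psmd8 was at -2.24 (SE 0.0937, adjusted p = 2.84e-24), Psmd11 at -1.45 and Psmd6 at -1.41, all lid subunits. Psma8, on few reads, went the other way, with a median over both genotypes of 0.211 RPKM in heart and 0 in skeletal muscle. The immune subunits were higher, Psmb8 by 1.53, Psmb9 by 1.74 (SE 0.150, adjusted p = 8.27e-14) and Psmb10 by 1.56, as were Psme1 by 1.53 and Psme2 by 1.04. Their constitutive partners were at -0.51 (Psmb5), -0.51 (Psmb6) and -0.89 (Psmb7). Of the pathway genes, Tap2, a peptide transporter, was at 1.50 and AI314180 at -1.42, and 7 of 9 antigen presentation genes were higher and 1 lower. KO mice gave 9 and 36 members (74.3% of all genes called, 40.2% higher and 34.1% lower).

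Soleus, the slow postural muscle, differed from the 3 fast muscles in fewer members than did the tissues of the comparisons above. The WT soleus libraries held the fast myosin Myh4 at 4693 to 10858 RPKM, where the median of all skeletal muscle libraries was 11033. How much fast muscle they carried was not tested, so the small difference cannot be read as a trait of slow fibres. In WT mice 2 members were higher and 12 lower, where 18.1% of all genes were called, 10.5% higher and 7.55% lower. Of the core 11 were lower and none higher: 4 of 6 ATPases, 6 of 11 other cap subunits and 1 of 7 alpha subunits. Psme4 was at -0.38 (SE 0.0676, adjusted p = 3.77e-05), Psmd8 at -0.32, Psmd11 at -0.30 and the barrel chaperone Psmg4 at 0.36. The pathway genes AI314180 and Ubb, a ubiquitin gene, were at -0.29 and -0.26. No immunoproteasome or PA28 gene passed the threshold, with adjusted p of 0.397 for Psmb9 (0.28) and 0.162 for Psme1 (0.23). The member count fell to 3 without mouse 3793543 and to 8 without mouse 3793553, counts not set against the share of all genes. On library totals the member count was 4 (3 higher, 1 lower, with 17.8% and 2.48% of all genes), with the core at -0.13 relative to all genes. KO mice gave 7 higher and 20 lower (44% of all genes called, 23% higher and 21% lower), and 5 higher and 21 lower without the soleus of mouse 3805666.

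**Figure D3:**
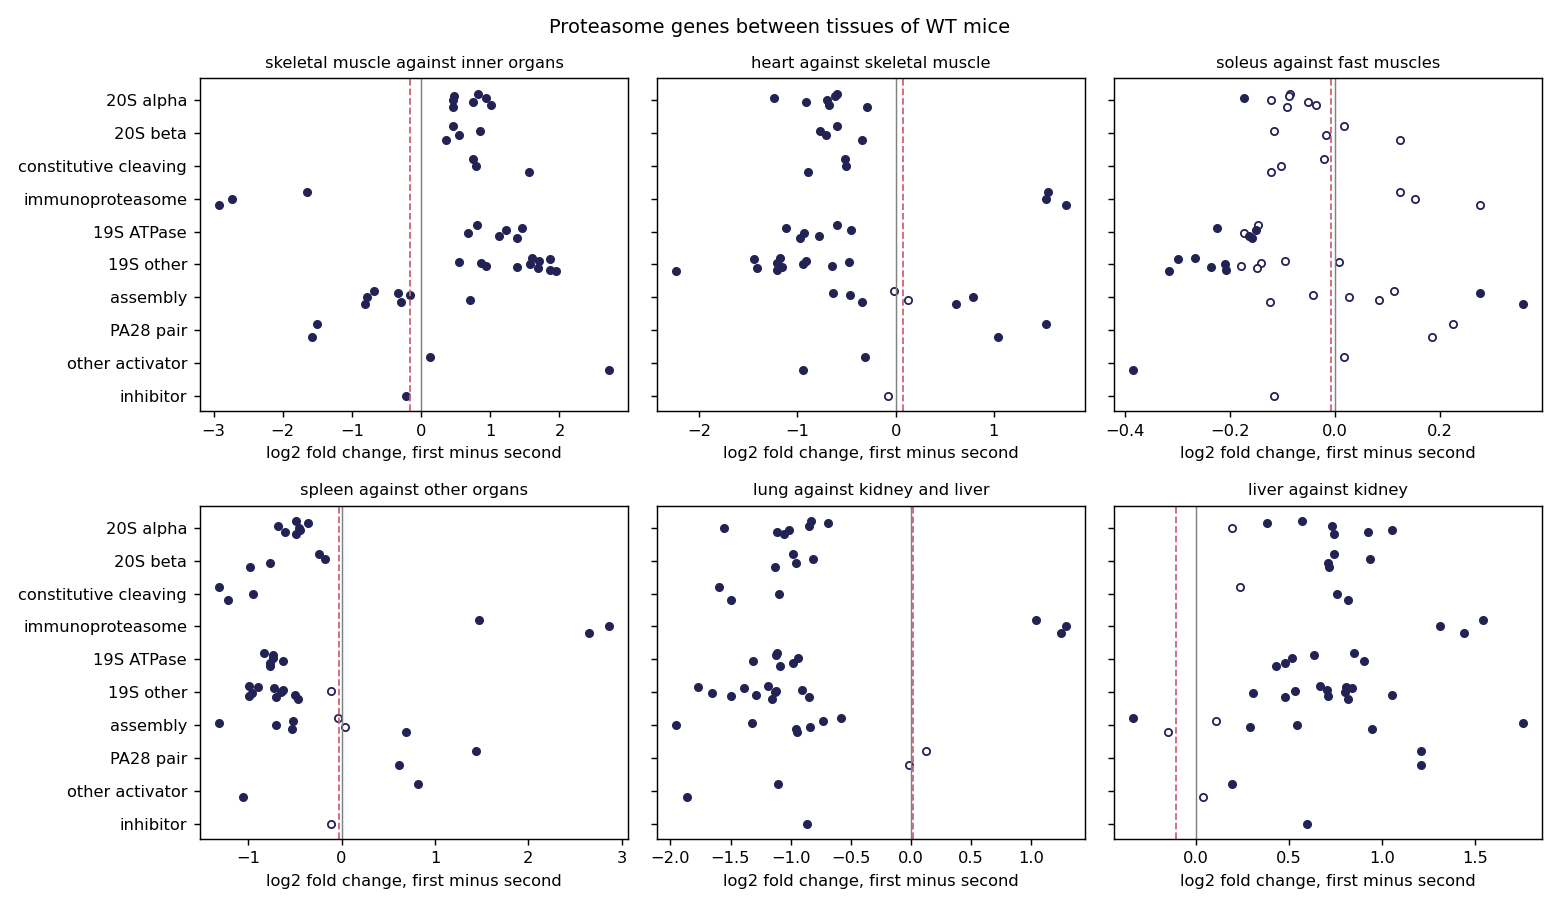
Log2 fold change of each member by role in 6 comparisons between tissues of WT mice, where filled points passed the threshold, open points did not, and the dashed line is the median of all genes. The 3 immunoproteasome genes lie on the other side of 0 from the core in the comparisons of muscle (-2.92 to -1.64), heart, spleen and lung, and on its side in liver against kidney (1.31 to 1.54). Psma8, Psmb11, Psme2b and Psmc3ip are not drawn.

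Spleen against kidney, liver and lung gave 11 members higher and 35 lower (79.8% of all genes called, 41.1% higher and 38.7% lower). Psmb8 was higher by 2.86 (SE 0.131, adjusted p = 1.71e-22), Psmb9 by 2.65 and Psmb10 by 1.47, Psme1 by 1.44 and Psme2 by 0.61. Psmb5, Psmb6 and Psmb7 were lower by -1.31, -0.94 and -1.22. Of the core 30 were lower and none higher (median -0.70, and -0.68 relative to all genes), whereas on library totals 18 members were higher and 14 lower (56.3% and 25% of all genes), with 4 core genes higher and 12 lower. Psme2b was at 3.77, Psmd9 at -1.31, Psme4 at -1.05 and Psmc3ip at 1.01. All 9 antigen presentation genes were higher, led by Irf8, a leukocyte transcription factor, at 4.32, with Tap2 at 1.93. Without the WT spleen that stood apart, 9 members were higher and 35 lower. KO mice gave 11 and 34 (81.7% of all genes called, 41.5% higher and 40.2% lower), and 11 and 33 without theirs.

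Lung against kidney and liver gave 5 members higher and 42 lower (81.9% of all genes called, 42.1% higher and 39.9% lower). All 31 core genes were lower, at a median of -1.11 and of -1.13 relative to all genes. On library totals 18 members were higher and 12 lower (72.9% and 15.1% of all genes), with 7 core genes higher and 9 lower. Psmb8, Psmb9 and Psmb10 were higher by 1.29 (SE 0.146, adjusted p = 1.82e-10), 1.25 and 1.04, while Psmb5, Psmb6 and Psmb7 were at -1.60, -1.10 and -1.50, of which Psmb6 turns to 0.02 on totals. Psme1 (0.12) and Psme2 (-0.02) did not pass the threshold, and on totals they were at 1.24 and 1.10. Psme2b was at 2.34, Psmg1 at -1.95, Psmc3ip at 1.89 and Psme4 at -1.86. Of the pathway genes, the cap's ubiquitin receptor Adrm1 was at -1.70 and the interferon regulator Irf1 at 1.51. KO mice gave 5 and 42 (83.1% of all genes called, 42.6% higher and 40.5% lower).

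Liver stood above kidney across the set, with 41 members higher and 2 lower (70.9% of all genes called, 31.9% higher and 39% lower). Of the core 29 were higher, at a median of 0.71 and of 0.82 relative to all genes. On library totals 14 members were higher and 16 lower (13.6% and 64.7% of all genes), with 7 core genes higher and 8 lower. Psmb8, Psmb9 and Psmb10 were higher by 1.31 (SE 0.194, adjusted p = 1.33e-07), 1.44 and 1.54, and Psme1 and Psme2 both by 1.21. Psmb6 and Psmb7 were at 0.76 and 0.82, and Psmb5 did not pass (0.24, adjusted p = 0.0755, and -0.43 on totals). Psmd9 was at 1.75, Psma5 at 1.05 and Psma8 at 2.24, and Psmc3ip at -2.27. The trimming peptidase Erap1 was at 2.10 and the barrel chaperone Pomp at 1.11. KO mice gave 44 higher and 1 lower (73.7% of all genes called, 32.7% higher and 41% lower).

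The loss of Cdh15 was compared within each tissue. No member passed the threshold by edgeR in any of the 9 tissues, with 48 to 50 members tested in each. The background was as low: 0.00771% of genes were called in soleus, 0.00777% in EDL, 0.00792% in gastrocnemius and 0.0081% in tibialis, which was Cdh15 itself each time, and 0 in the other 5 tissues. At an unadjusted p under 0.05 there were 5 members in soleus, 3 in heart, 1 in kidney, 1 in lung and 0 in the other tissues, and DESeq2 called 1, Psmd3 in soleus (1.1% of all genes called there), and 0 elsewhere. The core median, KO minus WT, lay between -0.07 (soleus, lung and kidney) and 0.01 (spleen), with a median SE of 0.05 (heart) to 0.09 (spleen) per gene. The immune subunits and PA28 genes lay between -0.43 (Psmb9 in EDL, SE 0.314) and 0.24 (Psme2 in soleus, SE 0.120).

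In heart the 3 members of smallest p were Psmb10, Psmb6 and Psmb9. Psmb10 was at 12.8, 11.4, 13.0, 8.96 and 11.2 RPKM in KO and 12.7, 13.3, 13.1, 13.1 and 14.9 in WT mice, a difference of -0.22 (SE 0.0789, adjusted p = 0.999). Psmb9 was at 4.43, 3.31, 4.70, 5.10 and 4.12 RPKM in KO and 4.18, 5.02, 5.22, 7.59 and 6.19 in WT mice, a difference of -0.38 (SE 0.162). The groups overlapped for both genes. In kidney Psma2 and Psmb1 were at -0.11 each and Psmb8 at -0.26, and in lung Psma5, Psmd9 and Psmd8 at -0.13, -0.14 and -0.10. In the other tissues the 3 of smallest p were Psmg3 (0.21), Psmd4 (-0.10) and Psmb9 in EDL, Psma3 (-0.10), Psmg4 (-0.38) and Psma2 (-0.09) in gastrocnemius, Psmg1 (0.25), Psmg2 (0.14) and Psmb10 (-0.24) in tibialis, Psmg1 (0.11), Psmg4 (0.16) and Psmg3 (0.10) in liver and Psmg3 (0.34), Psmd9 (0.15) and Psma4 (-0.19) in spleen, with adjusted p of at least 0.986.

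**Figure D4:**
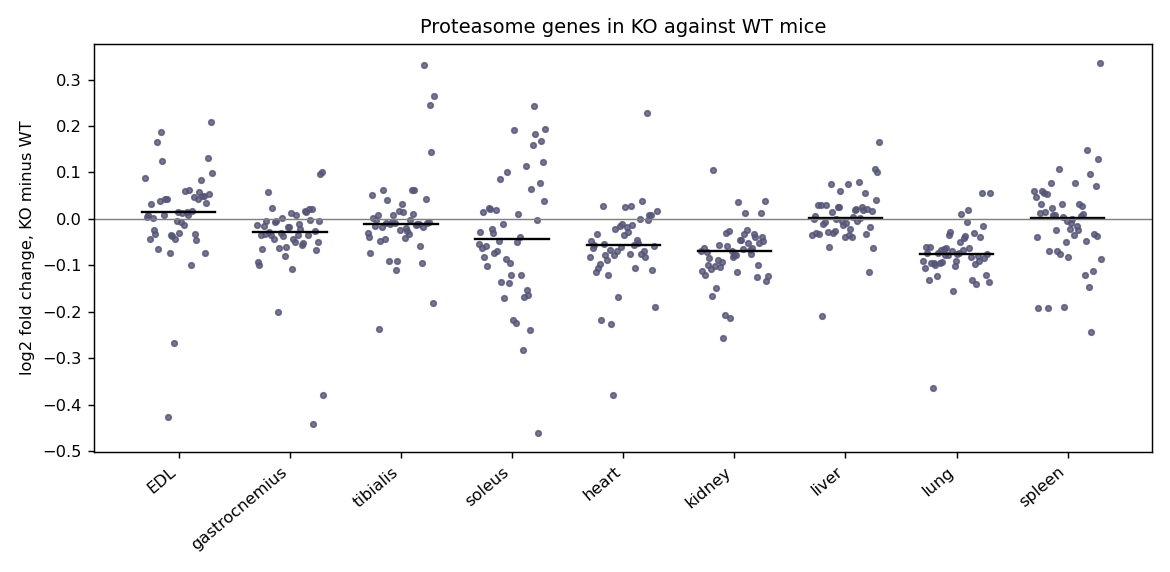
Log2 fold change of each tested member, KO minus WT, in the 9 tissues, with bars at the median of the members. The medians lie between -0.08 (lung) and 0.01 (EDL), and the lowest point is Psme4 in soleus at -0.46.

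Soleus had the smallest p-values of the members, with Psmd3 at rank 110 by p among the 12965 genes tested there. Psmd3, a lid subunit of the cap, was at 34.9, 35.2, 31.7, 31.0 and 32.4 RPKM in KO and at 38.3, 40.6, 41.1, 39.2 and 39.1 in WT soleus. The 5 KO libraries were all below the 5 WT libraries. The difference was -0.28 (SE 0.0742), which did not pass by edgeR (adjusted p = 0.238, and 0.108 to 0.433 without 1 of the mice) and passed by DESeq2 (adjusted p = 0.0303). Psme4 was at 51.6, 53.0, 50.4, 46.0 and 32.1 RPKM in KO and at 51.4, 64.6, 61.8, 67.3 and 66.2 in WT soleus, a difference of -0.46 (SE 0.149, adjusted p = 0.238 by edgeR). Its lowest value was the KO library of mouse 3805666, and the WT library of mouse 3793543 fell among the KO libraries. Psmd4, a ubiquitin receptor, was at -0.17 (adjusted p = 0.250).

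Whether soleus differed from the fast muscles in its response was tested over the 40 muscle libraries. No member passed by edgeR (0 of 48, with 0 of all 13534 genes called), and 6 had an unadjusted p under 0.05. The 6 were not set against the number of all genes under that p. The 3 of smallest p were Psmd3 (-0.31, SE 0.0859, adjusted p = 0.0853), Psme4 (-0.40, SE 0.113, adjusted p = 0.0887) and Psmd1, the base scaffold of the cap (-0.21, SE 0.0766, adjusted p = 0.145). All 4 muscles came from the same mice, and with the mouse as a replicate block these 3 passed, at adjusted p of 0.0229, 0.0283 and 0.0347, where 4.37% of all genes were called. DESeq2 called Psmd3 and Psme4 (adjusted p = 0.0315 and 0.0333, 1.73% of all genes called). By edgeR without the block, 2 were called without mouse 3793543, 3 without mouse 3793546 and 0 without any other mouse. These counts were not set against the share of all genes called in the same fits. Without mouse 3805666 the adjusted p of Psmd3, Psme4 and Psmd1 were 0.376, 0.342 and 0.540.

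Fibre type markers differed between these libraries too. Myh4, the fast IIB myosin, was at 4533, 6357, 5088, 5402 and 15.1 RPKM in the KO soleus libraries, in the same order of mice, and at 4693, 8401, 8708, 10858 and 10149 in WT. The lowest WT value was that of mouse 3793543, whose Psme4 (51.4 RPKM) and Psmd3 (38.3 RPKM) were also the lowest of WT. In the KO library with the least Myh4, of mouse 3805666, Psme4 was at 32.1 RPKM, the lowest of all, and Psmd3 at 32.4, among the other KO libraries. Myh7, the slow myosin, was at 815, 549, 640, 914 and 1552 RPKM in KO and at 683, 534, 412, 354 and 309 in WT soleus. The differences, KO minus WT, were 0.90 for Myh7, 0.998 for the slow muscle marker Tnnt1 and -1.035 for Myh4. None passed by edgeR (adjusted p = 0.238, 0.238 and 0.573). Psme4 was lower in soleus than in the fast muscles of WT mice as well, as given above.

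Leukocyte markers had positive differences, KO minus WT, in soleus that did not pass the threshold. Of the 12 markers 7 could be tested, and all 7 were positive, between 0.50 (Csf1r) and 0.85 (Itgam), with 6 at an unadjusted p under 0.05 and adjusted p of 0.238 to 0.398 by edgeR. The 12 summed to 54.14, 36.69, 50.61, 94.13 and 90.13 RPKM in KO and to 39.98, 30.05, 45.34, 26.88 and 55.09 in WT soleus, in the same order of mice, so that the groups overlapped. The endothelial markers Pecam1 and Cdh5 were at 0.28 and 0.07. In the test of soleus against the fast muscles the 7 leukocyte markers were between 0.42 and 0.85, with 1 at an unadjusted p under 0.05 and adjusted p of at least 0.297. The part of fibre type and of these cells in the KO and WT values was not tested.

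**Figure D5:**
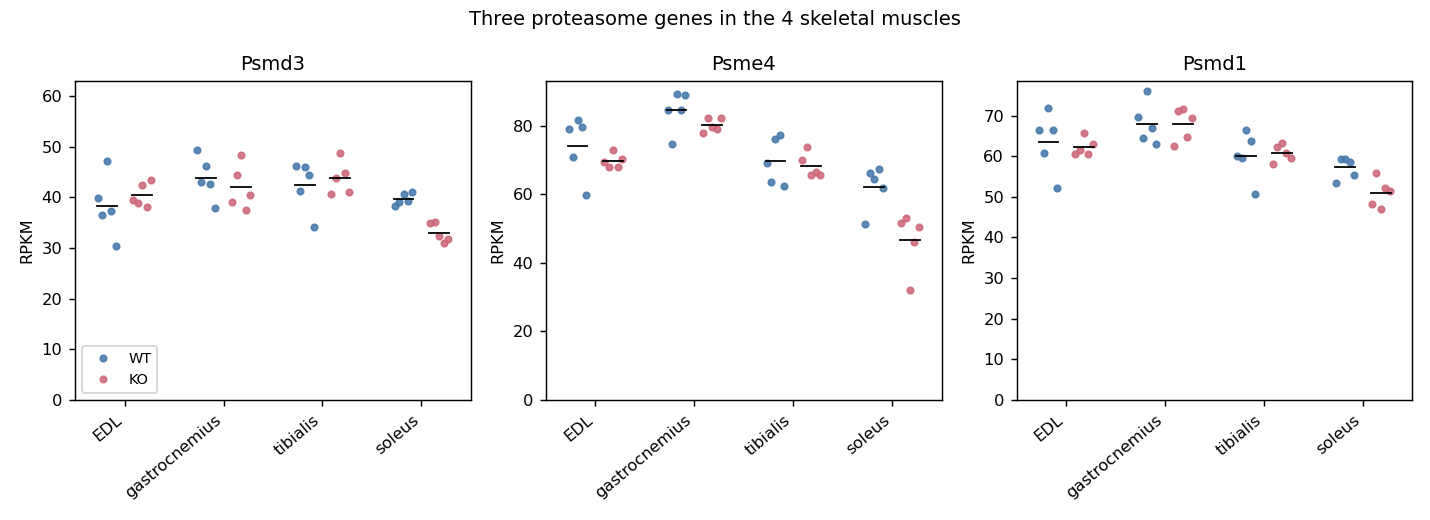
Level of Psmd3, Psme4 and Psmd1 in RPKM in the 4 skeletal muscles, with WT in blue, KO in red and bars at group means. In soleus the KO libraries of Psmd3 lie at 31.0 to 35.2 RPKM and the WT libraries at 38.3 to 41.1, while the genotypes overlap in the other 3 muscles.

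Of the members left, Psma8 had at most 20 reads and Psmb11 at most 35.8 estimated reads in any library, so their fold changes rest on few reads. The germ cell subunit Psma8 had a median of 0 reads in EDL, gastrocnemius and tibialis. Psme2b was at a median of 14.2 RPKM in lung and 51.8 in spleen and at most 4.35 elsewhere, with reads that cannot be told apart from those of Psme2 wherever the copies are identical. Psmb3, Psmb5, Psmb7 and Psmd9 also carried fractions of reads in many libraries and are uncertain in the same way. Psmc3ip had a median of 4.96 RPKM in lung, 3.84 in spleen and 0.245 in liver.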

How the data were processed

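Bulk RNA was sequenced as stranded polyadenylated libraries, per the labels' protocols, on genome mm10, per the submitters' processing notes. Neither the aligner nor the counter, nor whether strand was used, is given in the sources used here. The authors deposited expected counts per gene, of which 85.55% were whole, and RPKM values, which equal the counts over exon length and over the sum of the library. Expected counts were rounded for the fits, and the 22 marker sequences in the table (at most 0.0323% of a library) were left out. RPKM served for levels and was not tested. Libraries were grouped by the labels alone, with the mouse as the replicate. Nothing says whether a mouse gave more than 1 piece of tissue, so p-values measure the spread between these libraries. Over 172 pairs of replicates the smallest chi-square per gene was 5.05, so none was a copy.

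Genes were tested with the quasi-likelihood F test of edgeR 4.0.16 in R 4.3.3 (robust, TMM, filterByExpr at min.count 10 and min.total.count 15), adjusted by Benjamini-Hochberg over all genes tested, at a threshold of 0.05. KO and WT were compared in each tissue alone. Tissues were compared over all libraries of 1 genotype, in WT mice first. SE is that of the log2 fold change, from the F statistic. The fit was tested on simulated data with known changes. Alternatives were DESeq2 1.42.0 (its Wald test, and its size factors in the edgeR fit), library totals alone, no filter beyond 1 read in all, age, the mouse as a replicate block, entered as a term of the edgeR design in comparisons of tissues and in the soleus test, and each mouse left out. Leaving out the libraries that stood apart was added after seeing the data. Counts of members with a mouse or library left out are given without the share of all genes called. Ratios and summaries used Python 3.11.15 with pandas 2.3.3.

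The members, roles and other lists were chosen with earlier results of these data known. Named genes were Psmb5 to Psmb10, Psme1 and Psme2, in each comparison of tissues the 4 other members of largest change past the threshold and the 2 other pathway genes of smallest p, in KO against WT the 3 members of smallest p, and any member or pathway gene past the threshold there. Libraries of 1 mouse come from the same animal, as the labels give it. After removing group means, the correlation of log2 CPM (pseudocount of 1) within a mouse had a mean of 0.22 over 60 pairs of muscles and of 0.08 over all 344 pairs of tissues, 113 of them above 0.1.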

Additional observations from a re-analysis of the deposited data

Results flagged for a closer look

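The level of the 8 cleaving and PA28 genes was searched in each of the 144 combinations of gene and group for a library whose gap to the nearest other, divided by the range of the group, exceeds Dixon's 95% limit. It did in 17 (11.8%), where chance gives about 1 in 20. Of these, 8 were in the 2 spleen libraries that stood apart. In WT 3805673 Psmb5 was at 24.3 RPKM (the next library at 60.0), Psmb7 at 47.5 (next 70.0), Psmb8 at 134 (next 224) and Psme1 at 409 (next 249). In KO 3817943 Psmb5 was at 28.9 RPKM (next 56.0), Psmb9 at 83.7 (next 110), Psme1 at 330 (next 261) and Psme2 at 89.7 (next 153). In both libraries Psme1 was high while Psmb5 was low.

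The WT gastrocnemius of mouse 3793553 was high in 3 immune-related genes, Psmb9 at 1.59 RPKM (next 0.982), Psmb10 at 4.18 (next 2.71) and Psme2 at 14.5 (next 10.5), and its heart was high in Psmb10 at 14.9 (next 13.3). Psmb8 was low in the KO heart of mouse 3793546, at 5.68 RPKM (next 7.79), and Psme2 in its tibialis, at 12.4 (next 13.6). In WT EDL, Psme1 was highest in mouse 3817948 at 21.4 RPKM (next 17.5) and Psme2 in mouse 3805673 at 15.8 (next 11.9). Psmb6 was lowest in WT tibialis of mouse 3817948, at 66.4 RPKM (next 86.5).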

How the results depend on the processing

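Of the 277 counts of called members obtained under the alternatives, 267 stayed within 1.5 times the reported count. These counts ignore direction, and between tissues the split into higher and lower members changed on library totals, as given above. They also include KO against WT, where the reported count was 0 in every tissue. KO against WT in soleus went from 0 to 1 by DESeq2. The difference of soleus from the fast muscles in the KO effect went from 0 to 2 by DESeq2, to 3 with the mouse as a replicate block, and to between 0 and 3 without 1 mouse. Soleus against fast muscles in WT mice went from 14 to 4 on library totals and to between 3 and 20 without 1 mouse. Lung against kidney and liver went from 47 to 30 on library totals in WT and also in KO mice. Among the single named genes the block brought Psmd1, Psmd3 and Psme4 past the threshold in that test and took Psma8 out in KO soleus against fast muscles (1.89, adjusted p = 0.0516 by edgeR). The block changed no other call of a named gene and moved no other count by over 1.5 times.

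Of 2349 values of single named genes, 2283 kept their direction and side of the threshold, 27 passed it newly, 29 no longer passed, and 10 changed sign, all on library totals. In muscle against the inner organs Psmb5 went to -0.15 (WT) and -0.13 (KO) and Psmb6 to -0.10 in both. In liver against kidney Psmb5 went to -0.43 (WT) and -0.34 (KO). In lung Psmb6 went to 0.021 (WT) and Psme2 to 1.10 (WT) and 1.04 (KO), and in KO soleus Psmb6 went to 0.0041. The cause of single changes was not tested. Psmb8 and Psmb9 in the muscles are limited by depth, with as few as 21 and 8 reads.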

Other observations

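Other genes of the pathway had tissue levels of their own. The muscle ubiquitin ligase Fbxo32 had medians of 589 RPKM in gastrocnemius, 424 in EDL, 314 in tibialis, 239 in soleus, 39.0 in heart and at most 6.30 in the inner organs. Zfand5, a proteasome-binding factor, had medians of 216 to 305 RPKM in the skeletal muscles, 15.3 in heart and 6.01 to 26.0 in the inner organs. Nfe2l1, a transcription factor for proteasome subunit genes, had medians of 136 to 183 RPKM in the muscles, 124 in heart, 74.0 in lung and 29.1 to 46.5 in kidney, liver and spleen, so that heart was near skeletal muscle for Nfe2l1 and far below it for Zfand5. The groups of all 3 genes did not overlap between skeletal muscle and the inner organs.

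Genes of antigen presentation had their lowest medians in skeletal muscle and their highest in spleen. Tap1, a peptide transporter, had medians of 0.669 RPKM in gastrocnemius, 3.90 in heart, 3.61 in kidney, 6.72 in liver, 17.6 in lung and 82.1 in spleen. Nlrc5, the transactivator of class I genes, had medians of 0.141 RPKM in EDL, 0.871 in heart, 0.842 in kidney, 3.14 in liver, 3.70 in lung and 22.6 in spleen. Irf8 departed from this order, with 1.16 RPKM in heart and 1.29 in liver, both within the skeletal muscle medians of 1.14 to 1.51, against 129 in spleen.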
